A study of Mus musculus with 12 samples.

Results

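The 37 genes described here are interferon-stimulated genes, the antiviral program that cells switch on when they sense interferon. They were picked by name, from a list written for this gene family, among the 41457 genes counted in each of 12 RNA-Seq libraries of mouse splenic Treg, and all 37 were found. The libraries formed 4 groups of 3. CD18wt Treg came from mice with intact Itgb2 alleles that carried Foxp3-Cre, and CD18Foxp3 Treg came from littermates in which Foxp3-Cre removed exon 3 of both floxed Itgb2 alleles, so the gene for CD18, the shared β-chain of the β2 integrins, was disrupted in cells that express Foxp3. Both genotypes carried the Cre and an RFP reporter by which CD4+ Treg were sorted from spleen. Unstimulated Treg were cultured overnight in 5 U/mL recombinant human IL-2, and stimulated Treg in the same IL-2 with agonistic antibodies to CD3 (1 μg/mL) and CD28 (2 μg/mL), which engage the T cell receptor complex and its costimulator. The ages of the mice are not given in the sources used here. The labels call the libraries biological replicates, and the paper's legend for transcript levels in these cultures describes each dot as an individual mouse. Whether the same mouse gave an unstimulated and a stimulated library is not stated. The p-values measure the spread between these libraries.

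Type I interferons signal through the receptor chains Ifnar1 and Ifnar2 and the kinases Jak1 and Tyk2, which activate ISGF3, a complex of STAT proteins with Irf9. ISGF3 binds the interferon-stimulated response element (ISRE) in promoters, while interferon-γ acts mainly through the GAS element and the factor Irf1. The genes switched on in this way sense viral RNA, block its translation, degrade it or hold virions at the membrane, and T cells express many of them at low level without infection.

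Libraries held 10665174 to 19005482 exon reads, of which 92.7% to 93.9% were placed at 1 locus, and replicates differed by more than counting error (chi-square per degree of freedom 6.11 to 64.3 between pairs of a group). The deleted gene, Itgb2, lay at 387 to 465 TPM (reads scaled by exon length and then to the same total in every library) in unstimulated CD18wt Treg and at 229 to 257 TPM in unstimulated CD18Foxp3 Treg. On stimulation it lay at 329 to 331 and at 131 to 202 TPM, respectively, so that the genotypes did not overlap in either culture. Only exon 3 is targeted, so reads from the other exons can remain. The counts are by gene and not by exon, and the source of the remaining Itgb2 reads was not tested. Of the Treg markers, Foxp3 was among 6 genes whose summed level was 1336 to 1662 TPM in unstimulated CD18wt Treg and 1487 to 1501 TPM in unstimulated CD18Foxp3 Treg, and none of the 6 was called between the genotypes.

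Promoter stretches are shown for several of the members that held a match to the ISRE or the GAS element. RefSeq promoters of GRCm38.p6, from 250 bases before to 50 bases after a start site, matched 27 of the 37 members by symbol. Usp18, Zbp1, Oas2, Dhx58, Mx1, Mx2, Ifi27l2a, Rtp4, Parp9 and Parp14 had no entry. The core of the ISRE was searched as GAAANNGAA on both strands and the GAS element as TTCNNNGAA, which reads alike on both strands. An ISRE core was found in 15 of the 27 members (55.6%), against 9.76% of 27025 genes with a promoter in the table. A GAS match was found in 7 of the 27 (25.9%), against 9.55% of all. In Bst2 the matches of the motifs overlap. The following stretches run 5′ to 3′ on the strand of the gene, with every base of the element named on the line in capitals; on the strand shown, a match of the ISRE core may also read as its reverse complement, TTCNNTTTC.
Isg15 promoter, ISRE core, chr4:156200856-156200916, minus strand, 98 to 38 bases before the start: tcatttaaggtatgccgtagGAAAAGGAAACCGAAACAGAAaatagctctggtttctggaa
Ifit3 promoter, ISRE core, chr19:34583354-34583455, plus strand, 175 to 74 bases before the start: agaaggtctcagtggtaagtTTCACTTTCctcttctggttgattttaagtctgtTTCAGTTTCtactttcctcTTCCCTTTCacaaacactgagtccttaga
Ifit3b promoter, ISRE core, chr19:34607750-34607851, plus strand, 207 to 106 bases before the start: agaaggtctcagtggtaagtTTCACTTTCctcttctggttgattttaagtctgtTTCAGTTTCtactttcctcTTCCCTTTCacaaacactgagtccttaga
Rsad2 promoter, ISRE core, chr12:26456543-26456591, minus strand, 139 to 91 bases before the start: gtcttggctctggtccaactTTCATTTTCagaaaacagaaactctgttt
Bst2 promoter, ISRE core, chr8:71537568-71537622, minus strand, 150 to 96 bases before the start: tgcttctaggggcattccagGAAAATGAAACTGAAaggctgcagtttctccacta
Irf1 promoter, GAS, chr11:53769904-53769952, plus strand, 110 to 62 bases before the start: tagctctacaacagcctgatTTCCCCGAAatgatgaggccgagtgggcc
Isg15, Ifit3 and Ifit3b hold 3 matches each, and the stretches of Ifit3 and Ifit3b are the same in all 102 bases. Irf1 holds a GAS match and no ISRE core in this window.

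The members were not equally abundant. In TPM averaged over the 12 libraries, Ifi27l2a, a small membrane protein of the interferon-inducible Ifi27 family, led with 703 TPM and was the gene of rank 182 among all genes. Bst2, tetherin, which holds budding virions at the cell surface, followed with 244 TPM, and Irf1 with 164 TPM. Ifi35, whose product binds the regulator Nmi, had 96.4 TPM, and Dtx3l, a ubiquitin ligase that pairs with Parp9, had 86.4 TPM. Trim30a, a TRIM-family protein induced by interferon, had 69.2 TPM. Ifi27l2a alone held 40.8% to 48.6% of the members' summed TPM in each unstimulated library and 13.3% to 23.5% in each stimulated one. The least abundant members were Oas2, Mx1, Mx2 and Ifi44, which held at most 56 reads in any library.

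**Figure D1:**
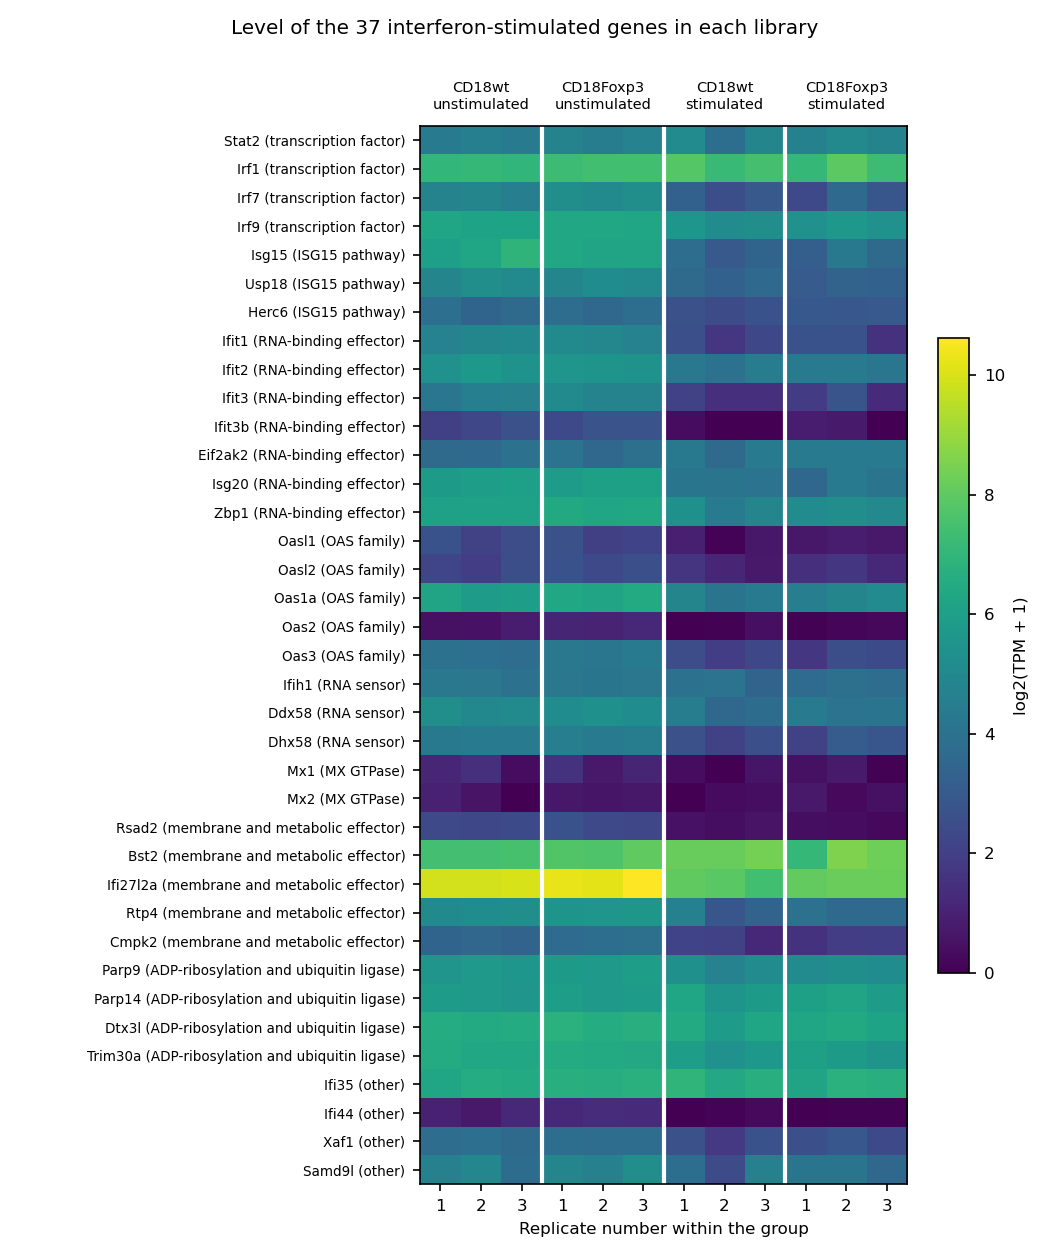
Level of each of the 37 genes (rows, grouped by role) in each of the 12 libraries (columns, by group and replicate number), coloured by log2(TPM + 1). Most rows are darker in the 6 stimulated libraries, while Irf1, Bst2, Stat2, Eif2ak2, Parp14 and Ifi35 are not.

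The comparison of the genotypes in unstimulated Treg asked whether loss of CD18 went along with another interferon-stimulated program before T cell receptor stimulation. The paper reports that CD18Foxp3 mice become inflamed in the skin and several organs, with enlarged spleens. Loss of CD18 in the Treg and an inflamed host cannot be told apart in this design, and neither was tested as a cause. No member passed the threshold of a 1.5-fold change with an adjusted p of at most 0.01 (edgeR quasi-likelihood test with Benjamini-Hochberg adjustment), and 0.135% of the 11829 genes tested did. Below that threshold, most members lay higher in CD18Foxp3 Treg. The log2 fold change was above 0 in 33 of 37 members (89.2%), against 49.0% of all genes tested, with a median of 0.18 against -0.00. An unadjusted p under 0.05 was reached by 10 members, all of them higher, which is 27.0% against 4.16% of all genes that were higher. In 14 members, 37.8% against 8.74% of all genes, every CD18Foxp3 library lay above every CD18wt library in TPM, and in none did every library lie below, as in 6.9% of all genes. These 14 were Irf1, Irf7, Ifit3, Zbp1, Oas1a, Oas2, Oas3, Dhx58, Bst2, Ifi27l2a, Rtp4, Cmpk2, Parp9 and Ifi35. Of the exon reads of Ifit3 and Oas1a, 48.8% and 53.6% were placed at 1 locus, so their place among the 14 is uncertain. The 37 genes are known to be induced together and are not independent of each other. In bulk RNA, a smaller share of cells with a transcript and less of it per cell cannot be told apart.

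Among the transcription factors, Irf7, which amplifies type I interferon transcription, had the smallest p of the members. It lay at 26.2, 27.9 and 22.2 TPM in CD18wt libraries 1 to 3 and at 37.4, 32.3 and 37.5 TPM in CD18Foxp3 libraries. The lowest CD18Foxp3 library was above the highest CD18wt library, and the log2 fold change was 0.46 (SE 0.10, adjusted p = 0.0946, edgeR). Irf1, a factor that responds to interferon-γ and to type I interferon, measured 131, 133 and 128 TPM in CD18wt Treg and 157, 167 and 169 TPM in CD18Foxp3 Treg. The groups were apart by more than their own ranges, at a log2 fold change of 0.30 (SE 0.08, adjusted p = 0.140, edgeR). The subunits of ISGF3 differed less. Stat2 lay at 20.6, 23.1 and 19.9 TPM against 25.9, 21.6 and 24.8 TPM, and its groups overlapped (log2 fold change 0.16, SE 0.10, adjusted p = 0.660, edgeR). Irf9, the DNA-binding subunit, lay at 73.3 ± 4.23 TPM (SD, n = 3) against 79.3 ± 1.83 TPM (SD, n = 3), with overlapping libraries and a log2 fold change of 0.09 (SE 0.08, adjusted p = 0.791, edgeR).

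Of the effectors, 3 others were among the 5 members of smallest p. Oas3, which makes the oligoadenylates that activate RNase L, lay at 14.7, 13.9 and 12.7 TPM in CD18wt Treg and at 18, 17.2 and 20.5 TPM in CD18Foxp3 Treg. All CD18Foxp3 libraries were above all CD18wt libraries (log2 fold change 0.41, SE 0.10, adjusted p = 0.124, edgeR). Ifi27l2a measured 945, 965 and 1015 TPM against 1238, 1176 and 1578 TPM. CD18Foxp3 library 3 stood highest, and the groups did not overlap without it either (log2 fold change 0.42, SE 0.10, adjusted p = 0.139, edgeR). Bst2 measured 172, 172 and 182 TPM against 213, 208 and 259 TPM. The groups were again apart (log2 fold change 0.34, SE 0.10, adjusted p = 0.238, edgeR). Permuting the libraries of each of these 5 genes exactly, on log2(TPM + 1) and with both sides counted, gave p = 0.1, the lowest value within reach of 3 against 3. Any gene whose groups do not overlap has this value, so it adds nothing to the separation already described.

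Not every family shared this direction. The ISG15 pathway, by which the ubiquitin-like protein ISG15 is joined to and removed from targets, had a median log2 fold change of -0.05. Isg15 lay at 63.4, 78.1 and 118 TPM in CD18wt Treg and at 81.2, 72.8 and 73.1 TPM in CD18Foxp3 Treg. CD18wt library 3 was the highest of the 6 and the groups overlapped (log2 fold change -0.21, SE 0.22, adjusted p = 0.823, edgeR). Usp18, the protease that removes ISG15 and restrains the type I receptor, had a log2 fold change of -0.05, and Herc6, a mouse ligase for ISG15, had 0.04. Oasl1, which represses translation of Irf7 mRNA, and Ifit2, which binds viral RNA, were the other members under 0, at -0.22 and -0.03. The genes of the OAS family spread from -0.22 for Oasl1 to 1.14 for Oas2, which rested on 11, 13 and 14 reads against 36, 28 and 36 reads. Those counts did not overlap, with an adjusted p of 0.479 (edgeR).

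**Figure D2:**
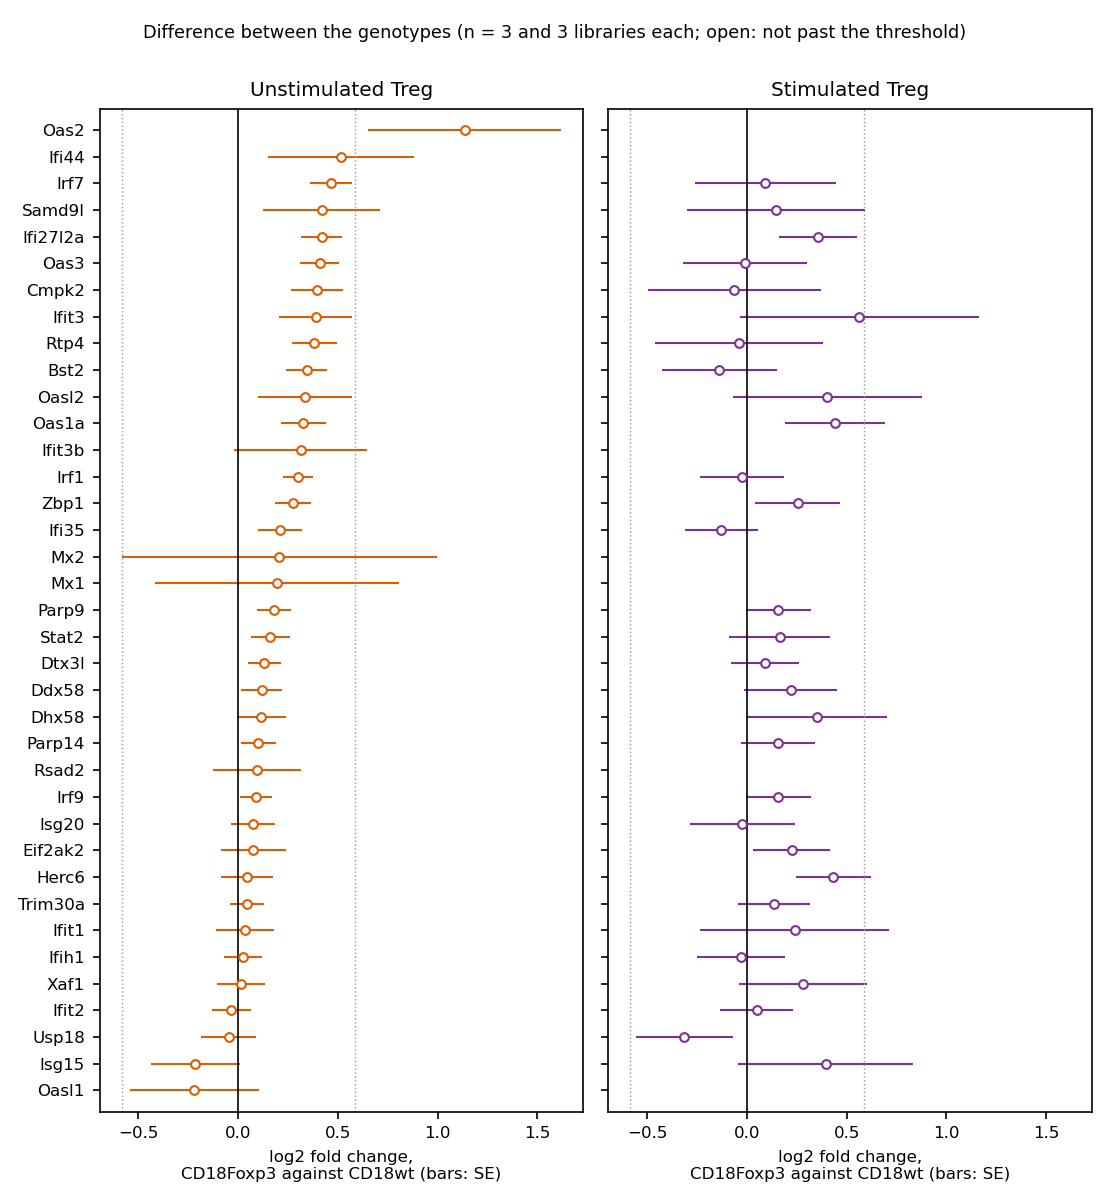
Log2 fold change of CD18Foxp3 against CD18wt Treg (x axis) for each member (y axis) in unstimulated (left) and stimulated Treg (right), with SE as bars, n = 3 and 3 libraries; dotted lines mark a 1.5-fold change and open points did not pass the threshold. All points are open, 33 of 37 lie above 0 on the left, and 7 members without a point on the right held too few reads to be tested.

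The genotype difference in unstimulated Treg was recomputed under 9 other settings and with each library left out. No member was called under any of them. The number of members above 0 was 31 to 33 under the other settings and 28 to 34 with a library left out, the lowest without CD18Foxp3 unstimulated library 1. The number at an unadjusted p under 0.05 ran from 1, when all 12 libraries shared 1 estimate of the spread, to 13 with limma on log2(TPM + 1) among the other settings, and from 8 to 14 with a library left out, the highest without CD18wt unstimulated library 3. Markers of other cells differed in level. The summed level of 4 B cell markers was 7.35 to 12.6 TPM in CD18wt and 5.69 to 6.83 TPM in CD18Foxp3 Treg. The 4 plasmacytoid dendritic cell markers summed to 2.10 to 2.65 and 2.27 to 3.79 TPM, and Siglech had 0 reads in all 12 libraries. The 5 myeloid markers summed to 4.30 to 15.8 and 1.19 to 6.54 TPM, and the 5 erythroid markers to 1.83 to 10.2 and 5.53 to 58.1 TPM. The 4 cytotoxic markers summed to 25.5 to 35.7 and 25.3 to 33.0 TPM, with Ncr1 at 0 reads in all 12 libraries. The 4 plasma cell markers, of which Xbp1 and Prdm1 are also expressed by T cells, summed to 69.8 to 78.9 TPM in CD18wt and 78.3 to 88.5 TPM in CD18Foxp3 Treg, with overlap. Of these markers, 2 of the 4 B cell, 2 of the 4 plasmacytoid dendritic cell and 1 of the 5 myeloid markers were tested. Also tested were 2 of the 5 erythroid, 2 of the 4 cytotoxic and 3 of the 4 plasma cell markers. The others held too few reads. None of those tested was called between the genotypes, and the part of these markers in the members' levels was not tested.

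After stimulation, the genotypes were compared at a lower level of the program. No member and none of all 11930 genes tested passed the threshold (0.0%, edgeR), and 583 genes (4.89%) had an unadjusted p under 0.05. Even Itgb2, the deleted gene, was not called, at a log2 fold change of -0.94 (SE 0.17, adjusted p = 0.216, edgeR). In unstimulated Treg Itgb2 had passed, at -0.85 (SE 0.09, adjusted p = 0.00408, edgeR). The absence of calls after stimulation therefore does not show an absence of differences. Of the 37 members 30 could be tested, while Ifit3b, Oasl1, Oas2, Mx1, Mx2, Rsad2 and Ifi44 held too few reads. The log2 fold change was above 0 in 21 of the 30 (70.0%) against 49.5% of all genes, with a median of 0.16 against -0.00. That median was 0.03 without CD18wt stimulated library 2 and 0.30 without CD18wt stimulated library 1. In 2 members, 6.67% against 5.02% of all genes, every CD18Foxp3 library lay above every CD18wt library in TPM. DESeq2 called 0 members as well, although it called 22 genes in all.

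Herc6 was 1 of the 2 members that did not overlap. It lay at 5.28, 4.37 and 5.34 TPM in stimulated CD18wt Treg and at 6.63, 6.49 and 6.87 TPM in stimulated CD18Foxp3 Treg. Its log2 fold change was 0.43 (SE 0.19, adjusted p = 0.977, edgeR), and it was the single member with an unadjusted p under 0.05. Of the exon reads of Herc6 68.3% were placed at 1 locus, and with such reads alone no member had an unadjusted p under 0.05. The number of such members was 0 to 4 under the 9 other settings and 0 to 3 with a library left out. Ifi27l2a was the other member without overlap, at 259, 236 and 170 TPM against 265, 289 and 297 TPM. The gap between its groups was small beside the range of the CD18wt libraries (log2 fold change 0.36, SE 0.20, adjusted p = 0.998, edgeR). Oas1a, an oligoadenylate synthetase, lay at 27.5, 16.1 and 18.9 TPM against 22.0, 27.3 and 34.4 TPM. Its groups overlapped (log2 fold change 0.44, SE 0.25, adjusted p = 0.998, edgeR). Zbp1, which senses nucleic acid in the Z form, lay at 39.1, 19.995 and 27.5 TPM against 33.5, 37.3 and 30.7 TPM, also with overlap (log2 fold change 0.25, SE 0.21, adjusted p = 0.998, edgeR). Usp18 pointed the other way, at 11.7, 8.87 and 11.5 TPM against 7.19, 9.41 and 8.89 TPM, with a log2 fold change of -0.31 (SE 0.24, adjusted p = 0.998, edgeR) and overlapping libraries. Irf7, the member of smallest p before stimulation, was at 6.87 ± 2.03 TPM (SD, n = 3) and 7.25 ± 3.74 TPM (SD, n = 3), a log2 fold change of 0.09 (SE 0.35, adjusted p = 0.998, edgeR).

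Stimulated replicates were farther apart than unstimulated ones for these genes. The mean deviation of the members from their group mean, in log2 CPM (exon reads scaled to library size by TMM), was -0.06 to 0.07 in the 6 unstimulated libraries. In stimulated CD18wt Treg it was 0.22, -0.26 and 0.04, and in stimulated CD18Foxp3 Treg -0.07, 0.21 and -0.14. CD18wt stimulated library 2 was the lowest of its group for 26 of the 37 members, library 1 the highest for 24, and CD18Foxp3 stimulated library 2 the highest for 22. The share of all genes in such places was not counted. The mean deviation of all genes was -0.04 to 0.03 in the unstimulated and -0.06 to 0.04 in the stimulated libraries. TMM scaling keeps that mean small, so it is no background for the members. Chi-square per degree of freedom between replicates, over all genes compared, was 6.11 to 11.4 in unstimulated and 11.9 to 64.3 in stimulated CD18Foxp3 Treg. In CD18wt Treg it was 22.7 to 38.6 with stimulation and reached 41.3 without. Whether the members spread more than other genes was not tested. The members held fewer reads with stimulation, 54942 against 93753 in CD18wt and 68334 against 121415 in CD18Foxp3 Treg. The part of this in the spread was not tested. The median SE of a member's log2 fold change between the genotypes was 0.25 over the 30 members tested in stimulated Treg and 0.11 over 37 in unstimulated Treg.

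**Figure D3:**
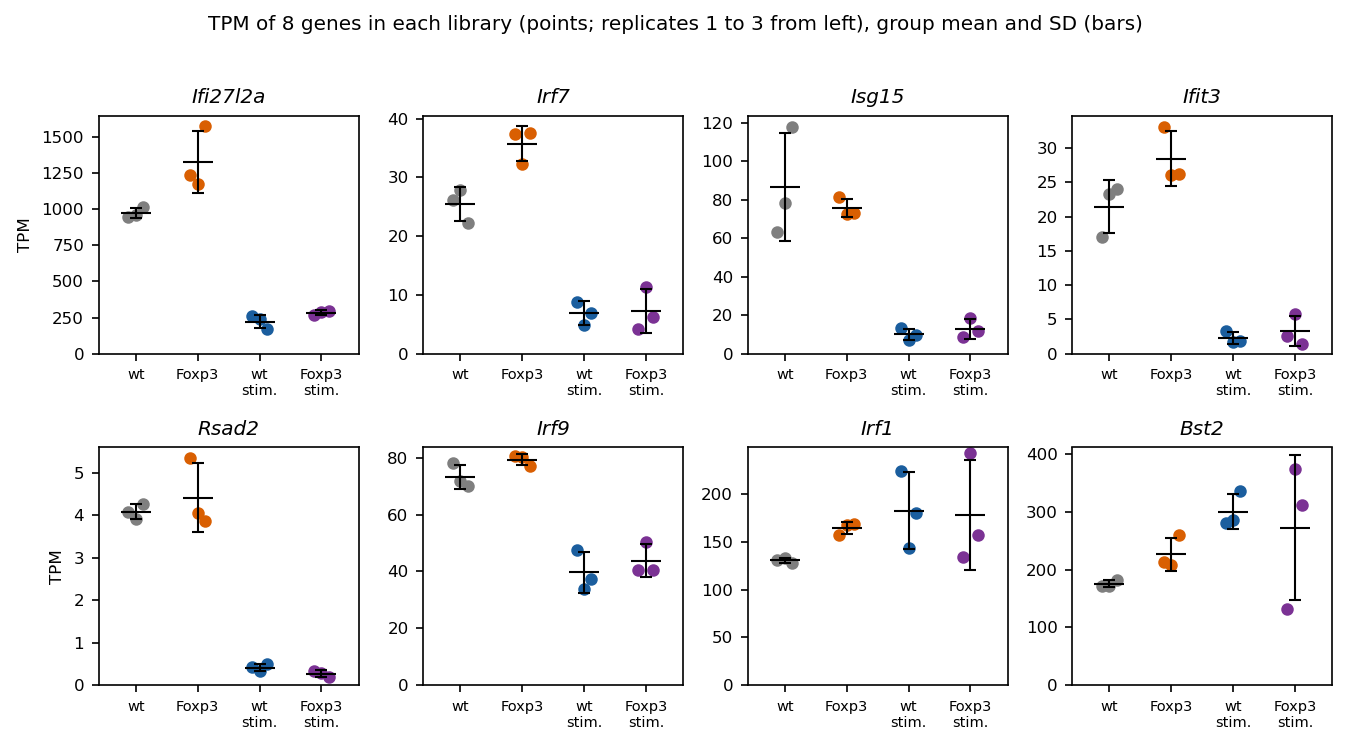
TPM (y axis, linear from 0) of 8 members in each library, by group (x axis; wt and Foxp3 are CD18wt and CD18Foxp3, stim. is stimulated), as points with group mean and SD, n = 3. Ifi27l2a, Irf7, Isg15, Ifit3, Rsad2 and Irf9 are lower in all 6 stimulated than in all 6 unstimulated libraries, whereas Irf1 and Bst2 overlap or lie higher.

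Stimulation with anti-CD3 and anti-CD28 was compared with IL-2 alone within each genotype, in the same unstimulated libraries that entered the genotype comparison, so the values of these comparisons are given side by side. The differences below are on the log2 scale of TMM-scaled counts, and levels are TPM. In CD18wt Treg 26 of the 36 members tested fell past the threshold (72.2%), where 14.9% of 11930 genes fell (edgeR). None rose, while 18.7% of all genes did. In CD18Foxp3 Treg 29 of 37 members fell (78.4%), where 17.6% of 12019 genes fell, and none rose, against 20.9% of all genes. The median log2 fold change of the members was -1.97 in CD18wt and -1.87 in CD18Foxp3 Treg, against 0.02 and 0.01 over all genes tested. In TPM, every stimulated library lay below every unstimulated library for 26 members in CD18wt Treg, against 14.2% of all genes, and for 29 members in CD18Foxp3 Treg, against 19.2%. A filter passed by reads in the unstimulated libraries alone lets in members that then have to be low on stimulation. With at least 10 reads required in every library, 30 members were tested in each genotype, of which 23 fell in CD18wt and 24 in CD18Foxp3 Treg. Under that filter 1707 of 10413 genes fell in CD18wt and 1969 of 10696 in CD18Foxp3 Treg.

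All 26 members that fell in CD18wt Treg also fell in CD18Foxp3 Treg. Ifih1, Oas2 and Samd9l passed the threshold in CD18Foxp3 Treg alone. Bst2, Eif2ak2, Ifi35, Irf1, Mx1, Mx2, Parp14 and Stat2 passed in neither. These counts by genotype say nothing of a difference between the genotypes, which the interaction below tested. On the TPM scale (limma on log2(TPM + 1)) the median of all genes moved up by 0.36 in CD18wt and 0.31 in CD18Foxp3 Treg. Of all calls, 80.7% were then higher in CD18wt Treg against 55.7% under TMM, and 75.9% against 54.3% in CD18Foxp3 Treg. On that scale 22 members fell and 1, Bst2, rose in CD18wt Treg, 27 fell and none rose in CD18Foxp3 Treg, and the median of the members was -1.19 in both.

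The summed TPM of the 37 members shows the same comparison without a test. It lay between 2314 and 2425 TPM in unstimulated CD18wt, 2723 and 3247 TPM in unstimulated CD18Foxp3, 1122 and 1498 TPM in stimulated CD18wt, and 1127 and 1612 TPM in stimulated CD18Foxp3 libraries. Without Ifi27l2a the ranges were 1369 to 1410, 1547 to 1668, 885 to 1240 and 862 to 1324 TPM. The unstimulated genotypes did not overlap with or without that gene, and the stimulated ones did.

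Of the 4 transcription factors, 2 fell and 2 did not. Irf7 went from 25.5 ± 2.92 TPM (SD, n = 3) to 8.86, 4.80 and 6.93 TPM in CD18wt Treg, a log2 fold change of -2.31 (SE 0.21, adjusted p = 1.93e-06, edgeR). In CD18Foxp3 Treg Irf7 went from 35.7 ± 2.98 TPM (SD, n = 3) to 4.10, 11.4 and 6.26 TPM, at -2.68 (SE 0.30, adjusted p = 7.73e-05, edgeR). All stimulated libraries were far below all unstimulated ones. Irf9 lay at 78.1, 71.7 and 70.1 TPM in unstimulated and at 47.6, 34.0 and 37.4 TPM in stimulated CD18wt Treg, a log2 fold change of -1.29 (SE 0.14, adjusted p = 8.25e-06, edgeR). In CD18Foxp3 Treg Irf9 lay at 80.6, 80.2 and 77.2 TPM and then at 40.4, 50.4 and 40.6 TPM, at -1.22 (SE 0.12, adjusted p = 2.82e-05, edgeR), again without overlap.

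Stat2 did not follow its partner Irf9. It lay at 34.2, 13.3 and 27.3 TPM in stimulated CD18wt and at 24.5, 31.2 and 26.1 TPM in stimulated CD18Foxp3 Treg. CD18wt library 2 was the lowest of all 12 libraries and library 1 the highest. The log2 fold change was -0.19 in both genotypes (adjusted p = 0.553 in CD18wt and 0.219 in CD18Foxp3 Treg, edgeR), and on the TPM scale its sign turned, to 0.13 and 0.17. Irf1 lay at 224, 144 and 180 TPM in stimulated CD18wt Treg and at 134, 243 and 157 TPM in stimulated CD18Foxp3 Treg. Within each group the highest library exceeded the lowest by more than the unstimulated genotypes differed. For Irf1 the log2 fold change was 0.07 in CD18wt Treg (SE 0.14, adjusted p = 0.711, edgeR), and -0.09 without CD18wt stimulated library 1. In TPM, however, every stimulated CD18wt library lay above every unstimulated one, which lay at 128 to 133 TPM. The log2 fold change of Irf1 was -0.26 in CD18Foxp3 Treg (SE 0.18, adjusted p = 0.264, edgeR), where the TPM scale gave 0.07.

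All 3 genes of the ISG15 pathway fell. Isg15 lay at 13, 6.91 and 9.75 TPM in stimulated CD18wt Treg, where the unstimulated mean was 86.5 ± 28.2 TPM (SD, n = 3). For Isg15 the log2 fold change was -3.56 (SE 0.32, adjusted p = 1.93e-06, edgeR). In stimulated CD18Foxp3 Treg Isg15 lay at 8.35, 18.6 and 11.6 TPM after 75.7 ± 4.76 TPM (SD, n = 3), at -2.93 (SE 0.26, adjusted p = 2.16e-05, edgeR). No stimulated library reached the lowest unstimulated one. Usp18 had been at 27.5, 37.3 and 32 TPM in unstimulated CD18wt and 27.9, 35 and 32.5 TPM in unstimulated CD18Foxp3 Treg, above all stimulated libraries, and changed by -2.004 and -2.27 (log2, CD18wt and CD18Foxp3). Herc6 had been at 13.7, 9.87 and 11.6 TPM and at 12.8, 10.9 and 13.3 TPM, also above all stimulated libraries, and changed by -1.64 and -1.25.

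The IFIT proteins, which bind viral RNA and keep it from being translated, held 2 of the 5 largest falls. Ifit3 went from 17.0, 23.3 and 24.0 TPM to 3.27, 1.70 and 1.78 TPM in CD18wt Treg, a log2 fold change of -3.68 (SE 0.34, adjusted p = 2.44e-06, edgeR). In CD18Foxp3 Treg Ifit3 went from 33.1, 26.1 and 26.2 TPM to 2.62, 5.77 and 1.45 TPM, at -3.48 (SE 0.39, adjusted p = 7.95e-05, edgeR). The unstimulated and stimulated libraries were well apart in both genotypes. Its neighbour Ifit3b, with the same promoter stretch, held 39, 51 and 43 reads in unstimulated and 2, 0 and 0 reads in stimulated CD18wt Treg. Relative to the exon reads of the libraries that is a 65.8-fold lower level, with a counting interval of 17.9 to 549 at 95%. The fitted log2 fold change of -6.00 (SE 0.95, adjusted p = 0.000185, edgeR) depends on the prior count. In CD18Foxp3 Treg Ifit3b held 58, 65 and 70 reads and then 10, 8 and 0 reads, a log2 fold change of -3.63 (SE 0.67, adjusted p = 0.00145, edgeR). Ifit1 changed by -3.35 and -3.12 and Ifit2 by -1.68 and -1.60.

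The other RNA-binding effectors differed from one another. Isg20, an exonuclease that degrades single-stranded RNA, changed by -2.26 and -2.36. Zbp1 had been at 65.9, 66 and 66.2 TPM in unstimulated CD18wt and 87.5, 74.7 and 81.8 TPM in unstimulated CD18Foxp3 Treg, above all stimulated libraries, and changed by -1.61 and -1.63. Eif2ak2, the kinase PKR, which halts translation when it binds double-stranded RNA, did not pass. It lay at 11.7, 11.4 and 14.6 TPM in unstimulated and 18.6, 11.8 and 20.6 TPM in stimulated CD18wt Treg, with overlap (log2 fold change 0.01, adjusted p = 0.968, edgeR). In CD18Foxp3 Treg Eif2ak2 lay at 15.4, 10.9 and 14 TPM and then at 19.0, 20.1 and 19.2 TPM, higher without overlap. The log2 fold change of the scaled counts was 0.16 (adjusted p = 0.376, edgeR).

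The OAS family and the RNA sensors fell with few exceptions. Oasl1 was among the 5 largest falls, from 5.32, 3.24 and 4.72 TPM to 0.895, 0.0668 and 0.595 TPM in CD18wt Treg (log2 fold change -3.56, SE 0.67, adjusted p = 0.000672, edgeR). In CD18Foxp3 Treg Oasl1 went from 5.16, 2.99 and 3.39 TPM to 0.605, 0.828 and 0.674 TPM (log2 fold change -2.81, SE 0.39, adjusted p = 0.000283, edgeR). Every stimulated library was under 1 TPM. Oas3 lay at 4.77, 2.81 and 3.9 TPM in stimulated CD18wt and 2.23, 4.84 and 4.2 TPM in stimulated CD18Foxp3 Treg, below all unstimulated libraries, and changed by -2.26 and -2.68. Oas1a had been at 71.9, 56.3 and 60.7 TPM in unstimulated CD18wt and 78.9, 72.3 and 90.2 TPM in unstimulated CD18Foxp3 Treg, above all stimulated libraries, and changed by -2.01 and -1.89. Oasl2 changed by -1.96 and -1.87. Oas2, the scarcest of the family, held 0, 1 and 8 reads in stimulated CD18wt and 1, 3 and 4 reads in stimulated CD18Foxp3 Treg, with adjusted p-values of 0.0648 and 0.000425 (edgeR). Of the sensors, Ddx58 (RIG-I) changed by -1.58 and -1.47 and Dhx58, a regulator of RIG-I, by -2.52 and -2.29. Ifih1, the sensor of long double-stranded RNA, had a log2 fold change of -0.71 in CD18wt Treg (adjusted p = 0.0125, edgeR) and of -0.76 in CD18Foxp3 Treg (adjusted p = 0.000306, edgeR), nearly the same size on different sides of the threshold.

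The antiviral GTPases Mx1 and Mx2 did not pass the threshold, and Mx2 was tested in CD18Foxp3 Treg alone. Mx1 held 29, 44 and 4 reads in unstimulated and 4, 0 and 10 reads in stimulated CD18wt Treg, and 53, 14 and 27 and then 9, 15 and 1 reads in CD18Foxp3 Treg. Mx2 held between 0 and 22 reads per library. Their groups overlapped in every comparison. The log2 fold changes of Mx1 on stimulation were -2.45 in CD18wt and -2.07 in CD18Foxp3 Treg, with adjusted p-values of 0.0466 and 0.0338 (edgeR), which miss the threshold. For Mx2 the adjusted p was 0.219 (edgeR).

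Of the membrane and metabolic effectors 4 of 5 fell. Rsad2, viperin, which makes a chain-terminating nucleotide, held 112, 114 and 75 reads in unstimulated and 7, 8 and 11 reads in stimulated CD18wt Treg. Its level went from 4.08 ± 0.179 TPM (SD, n = 3) to 0.411 ± 0.0856 TPM (SD, n = 3), a log2 fold change of -3.70 (SE 0.42, adjusted p = 1.3e-05, edgeR). In CD18Foxp3 Treg Rsad2 held 165, 101 and 104 reads and then 9, 7 and 4 reads, at -4.37 (SE 0.35, adjusted p = 1.26e-05, edgeR). Cmpk2, a nucleotide kinase and the neighbour of Rsad2 on chromosome 12, changed by -2.27 and -2.72, and Rtp4, a chaperone-like transmembrane protein, by -1.81 and -2.22. Ifi27l2a, the most abundant member, changed by -2.53 in CD18wt Treg (SE 0.18, adjusted p = 3.81e-07, edgeR) and by -2.59 in CD18Foxp3 Treg (SE 0.13, adjusted p = 1.67e-06, edgeR). Its stimulated means were 222 ± 46.2 and 284 ± 16.6 TPM (SD, n = 3).

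Bst2 was the exception among them. In stimulated CD18wt Treg it lay at 280, 286 and 336 TPM, above all unstimulated CD18wt libraries. Bst2 had a log2 fold change of 0.37 (SE 0.13, adjusted p = 0.0292, edgeR), short of the threshold, and 0.77 on the TPM scale, which passed it. In stimulated CD18Foxp3 Treg Bst2 lay at 133, 374 and 312 TPM, so that library 1 was below and libraries 2 and 3 above all 3 unstimulated libraries. Its log2 fold change there was -0.11 (SE 0.30, adjusted p = 0.781, edgeR), 0.20 without CD18Foxp3 stimulated library 1 and 0.14 on the TPM scale.

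The ADP-ribosyltransferases and ubiquitin ligases changed less than most other families, with medians of -0.85 in CD18wt and -0.87 in CD18Foxp3 Treg. Dtx3l lay at 95.8, 88.4 and 90.9 TPM in unstimulated and 89.8, 56.5 and 75.5 TPM in stimulated CD18wt Treg, overlapping in library 1, with a log2 fold change of -0.72 (SE 0.15, adjusted p = 0.00114, edgeR). In CD18Foxp3 Treg it lay at 108, 95 and 103 TPM and then at 75.8, 87.2 and 69.8 TPM, at -0.76 (SE 0.11, adjusted p = 0.000449, edgeR). On the TPM scale Dtx3l kept its direction, at -0.33 and -0.40, and did not pass. Its partner Parp9, which overlaps Dtx3l on the other strand of chromosome 16, changed by -0.97 and -0.99, and reads in the overlap cannot be told apart without strand. Trim30a lay at 59.1, 40.9 and 50.1 TPM in stimulated CD18wt and 64.4, 53.7 and 44.2 TPM in stimulated CD18Foxp3 Treg. In unstimulated Treg it had been at 91.1, 82.5 and 79.5 TPM in CD18wt and 91.6, 89.1 and 84.3 TPM in CD18Foxp3 libraries, so the cultures did not overlap, and its log2 fold changes were -1.16 (SE 0.14, adjusted p = 1.69e-05, edgeR) and -1.07 (SE 0.15, adjusted p = 0.000327, edgeR). Parp14, a mono-ADP-ribosyltransferase, did not pass, at -0.23 and -0.17.

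Of the remaining members, Ifi44 had 38, 28 and 32 reads in unstimulated and 0, 3 and 7 reads in stimulated CD18wt Treg, a log2 fold change of -3.55 (SE 0.82, adjusted p = 0.00304, edgeR). In CD18Foxp3 Treg Ifi44 had 55, 54 and 56 reads and then 1 read in each library, 55.7-fold lower relative to the exon reads with a counting interval of 18.7 to 273 at 95%. Xaf1, a pro-apoptotic antagonist of XIAP, changed by -1.99 and -1.72. Samd9l, which restrains cell proliferation and translation, spread widely in stimulated CD18wt Treg, at 13.4, 4.49 and 23.4 TPM, and did not pass there (log2 fold change -1.09, adjusted p = 0.199, edgeR). In CD18Foxp3 Treg Samd9l fell by 1.37 on the log2 scale (adjusted p = 0.000403, edgeR). In unstimulated Treg Ifi35 lay at 74, 95 and 90.4 TPM in CD18wt and 104, 96.4 and 105 TPM in CD18Foxp3 libraries. With stimulation it lay at 124, 83.4 and 103 TPM in stimulated CD18wt and 72.3, 109 and 99.8 TPM in stimulated CD18Foxp3 Treg, and overlapped the unstimulated libraries in both genotypes. Its log2 fold change was -0.15 (SE 0.16, adjusted p = 0.458, edgeR) and -0.49 (SE 0.14, adjusted p = 0.0166, edgeR). On the TPM scale the value for Ifi35 in CD18wt Treg turned to 0.25.

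**Figure D4:**
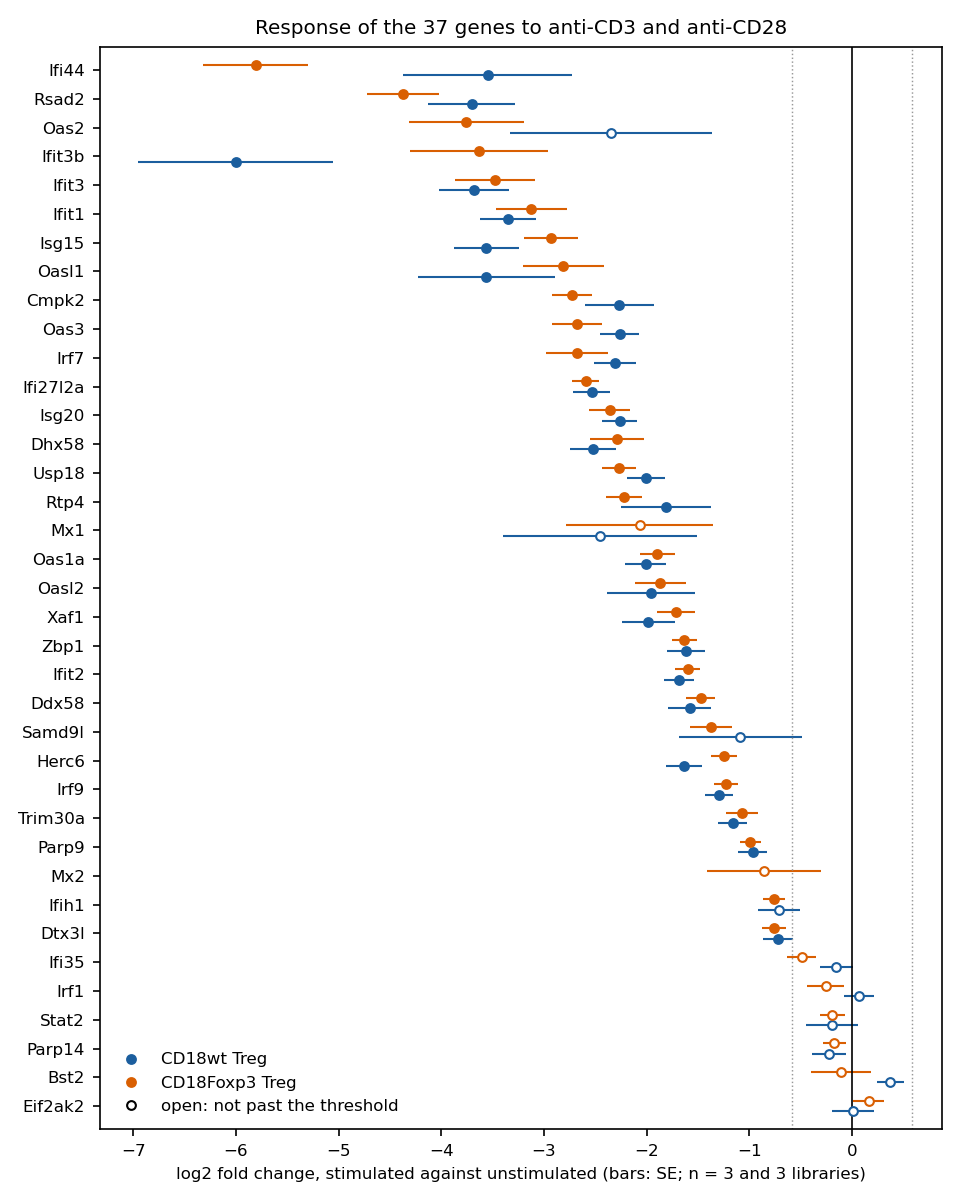
Log2 fold change on stimulation (x axis) of each of the 37 members (y axis, ordered by the value in CD18Foxp3 Treg) in CD18wt (blue) and CD18Foxp3 Treg (orange), with SE as bars, n = 3 and 3 libraries; filled points passed the threshold and dotted lines mark a 1.5-fold change. The filled points, 26 in CD18wt and 29 in CD18Foxp3 Treg, all lie left of 0.

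The interaction of genotype and stimulation asked whether the response differed between the genotypes. No member and none of 12636 genes tested was called (0.0%, edgeR), and 485 genes (3.84%) had an unadjusted p under 0.05, none of them a member. With DESeq2 no member and 1 gene was called. The interaction was above 0 in 18 of 37 members, against 48.6% of all genes, with a median of -0.00. The smallest p-values among the members belonged to scarce genes. The interaction was -2.25 for Ifi44 (SE 1.08, adjusted p = 0.987, edgeR) and 2.37 for Ifit3b (SE 1.28, adjusted p = 0.987, edgeR), both with 0 to 10 reads per stimulated library. For Irf7 it was -0.37 (SE 0.37) and for Ifi27l2a -0.07 (SE 0.23), both with an adjusted p of at least 0.987 (edgeR). The median SE of the interaction over the members was 0.31.

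Other genes of the pathway were counted from lists. Of the 9 receptors and kinases of the interferon pathway 8 could be tested on stimulation. In CD18wt Treg 6 fell (edgeR), namely Jak1 (log2 fold change -1.21), Il10rb (-1.21), Ifnar2 (-1.01), Ifngr2 (-0.96), Ifnar1 (-0.65) and Tyk2 (-0.64), and none rose. In CD18Foxp3 Treg 4 fell, Jak1 (-1.22), Ifnar2 (-1.08), Il10rb (-1.003) and Ifnar1 (-0.87), and none rose. The list medians were -0.81 and -0.73. Of the 13 genes for sensing nucleic acid upstream of interferon, 3 fell in CD18wt Treg and 2 fell and 1 rose in CD18Foxp3 Treg. The endosomal RNA receptor Tlr7 had the largest change, at -2.59 and -2.38, and the list medians were -0.06 and 0.09. Of 8 brakes on interferon signalling, Socs1, which inhibits JAK kinases, rose by 1.66 and 1.94, whereas Socs3 (-1.12 and -1.82) and the repressor Irf2 (-0.79 and -0.82) fell in both genotypes. Irf2bp2 (-0.72) fell in CD18Foxp3 Treg. Between the genotypes 8 receptors and kinases, 11 sensing genes and 8 brakes could be tested in each culture, and none was called.

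The interferon genes themselves gave few reads. Of 20 listed, 17 had no read in any of the 12 libraries, and a library without a read allows up to 3 reads, which is 0.158 to 0.281 CPM by library depth. Ifna4 had 2 reads in 1 library, and Ifnz was the other type I gene with reads. Ifng, which encodes interferon-γ, lay at 24.2, 35.4 and 7.4 TPM in unstimulated and 89.0, 103 and 66.3 TPM in stimulated CD18wt Treg, without overlap but short of the threshold (log2 fold change 1.56, adjusted p = 0.0347, edgeR). In CD18Foxp3 Treg Ifng lay at 21.0, 18.6 and 17.6 TPM and rose to 65.8, 192 and 47.9 TPM (log2 fold change 2.04, adjusted p = 0.0039, edgeR). Library 2 of stimulated CD18Foxp3 Treg, the highest for Ifng, was also the highest of its group for 22 of the 37 members. Library 2 of stimulated CD18wt Treg was the highest of its group for Ifng as well, but the lowest for 26 members. A link between Ifng and the members was not tested.

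Markers of other cells moved with stimulation beside the members, most lists downward and the plasma cell list upward. The B cell markers summed to 1.05 to 3.36 TPM in stimulated CD18wt and 0.55 to 1.57 TPM in stimulated CD18Foxp3 Treg, and Cd22 fell in both (edgeR). The plasmacytoid dendritic cell markers summed to 0.77 to 0.95 and 0.51 to 0.77 TPM, with Ccr9 lower in both genotypes. Of the same list, Tcf4 was not called and lay higher in every stimulated library than in the unstimulated ones of its genotype. Its range was 0.42 to 0.51 TPM without and 0.72 to 0.75 TPM with stimulation in CD18wt Treg. In CD18Foxp3 Treg it was 0.28 to 0.40 and 0.45 to 0.63 TPM. The myeloid markers summed to 0.20 to 2.45 and 0.88 to 1.63 TPM, with Lyz2 lower in CD18wt Treg. Cd14 of that list held 0 to 2 reads in unstimulated and 1 to 7 reads in stimulated libraries. The erythroid markers summed to 0.73 to 4.04 and 0.23 to 0.67 TPM. The cytotoxic markers summed to 12.6 to 18.2 and 16.8 to 25.8 TPM, most of it Cd8b1, with Cd8b1 and Klrb1c lower in both genotypes. Cd8a lay at 0 to 1.21 TPM over all libraries. The plasma cell markers summed to 145 to 193 TPM in stimulated CD18wt and 186 to 203 TPM in stimulated CD18Foxp3 Treg, and Prdm1 and Xbp1 rose in both genotypes and Sdc1 in CD18Foxp3 Treg (edgeR). The summed activation markers lay higher with stimulation, at 346 to 545 and 404 to 496 TPM without it and 1601 to 1975 and 2016 to 2315 TPM with it. Of these 5 markers, 3 rose past the threshold in CD18wt and 4 in CD18Foxp3 Treg (edgeR), and Cd69 in neither. The part of any of these marker lists in the members' levels was not tested.

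Most member reads were placed at 1 locus. Over all libraries 96.9% of the members' exon reads were unique, and 23 of 37 members had at least 99% unique reads. Ifit3 (48.8%), Oas1a (53.6%), Ifit3b (56.1%) and Herc6 (68.3%) had under 90%, so their counts and those of near-identical copies such as Ifit3 and Ifit3b are uncertain.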

How the data were processed

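Poly(A) RNA of sorted RFP+CD4+ splenic Treg was sequenced as 59-base single reads after 15 PCR cycles, in 12 libraries grouped by the labels. The authors trimmed the reads, mapped them and assigned them to genes with the default settings of CLC Genomics Workbench; the build, GRCm38, is from the submitters' processing notes. The deposited tables give, gene by gene, raw counts over exons, introns and the whole gene, and TPM, which have the same sum in each library; RPKM were not used. The counting is not stated to use strand.

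Exon counts were tested with edgeR 4.0.16 in R 4.3.3 (filterByExpr with a minimum count of 10, TMM, robust quasi-likelihood F test) on the 6 libraries of a comparison, or all 12 for the interaction, with Benjamini-Hochberg adjustment over all genes tested. Genes were called at the study's threshold, 1.5-fold with an adjusted p no higher than 0.01. SE is the log2 fold change divided by the square root of F. Counting intervals are exact at 95%, and they and the limit of 3 reads cover counting error only. The fits were tested on simulated data. Alternatives were DESeq2 1.42.0, limma 3.58.1 on log2(TPM + 1), uniquely placed reads, other filters, a looser adjusted p of 0.05, all libraries in 1 fit, a block for the replicate number and each library left out. Python 3.11.15 made tables and figures.

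The members, roles, gene lists and tests were chosen with earlier results of these data known. Every member is accounted for. Values in every library are given by rule for members called between genotypes (none), the 6 of highest mean TPM, the 5 largest called rises (none) and falls on stimulation in CD18wt Treg, the 5 of smallest p in each genotype comparison and the 4 transcription factors. Other members shown per library were chosen after their values were seen. Promoters come from RefSeq (GRCm38.p6). The value of 1 marker gene is not reported here.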

Additional observations from a re-analysis of the deposited data

How the results depend on the processing

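No member was called between the genotypes or in the interaction under any alternative. On stimulation the members called ranged from 23 to 28 in CD18wt Treg and from 24 to 30 in CD18Foxp3 Treg (24 to 26, and 29 throughout, with a library left out). Of all recomputed values, these counts of members included, 176 for whole comparisons and 583 for single members held their direction and side of the threshold or moved within their limits. The other 21 and 11 did not.

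The count over all genes was unstable between the genotypes in unstimulated Treg. It was 16 in the main test, 33 at an adjusted p of 0.05, 86 with DESeq2, 134 without a filter, 41 with the replicate block, 1 with limma and 0 with all 12 libraries in 1 fit. With a library left out it was 0 to 44, at 44 without CD18wt unstimulated library 3. In stimulated Treg the count of 0 became 22 with DESeq2, 61 without a filter, 1 with the replicate block and 0 to 2 with a library left out. In the interaction it became 1 with DESeq2, 31 without a filter and 1 with limma. The cause was not tested.

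Members not called changed sign. In CD18wt Treg on stimulation, limma on log2(TPM + 1) gave 0.13 for Stat2 and 0.25 for Ifi35, and leaving out a library gave -0.49 to 0.049 for Stat2 (0.049 without CD18wt stimulated library 2) and -0.092 to 0.14 for Irf1 (-0.092 without CD18wt stimulated library 1). In CD18Foxp3 Treg, limma gave 0.17 for Stat2, 0.068 for Irf1 and 0.14 for Bst2, and leaving out a library gave -0.38 to 0.20 for Bst2. Called Dtx3l no longer passed with limma in either genotype, and Bst2 in CD18wt Treg then passed. The TPM scale moves the median of all genes. The mean deviation of the members turned to 0.010 in CD18wt unstimulated library 2 and -0.0091 in library 3 on the log2(TPM + 1) scale.

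The labels number the replicates alike in each group. Deviations of all genes from the group mean correlated between same-numbered unstimulated and stimulated libraries at 0.10, -0.02 and -0.09 in CD18wt and 0.14, 0.07 and 0.15 in CD18Foxp3 Treg, so the numbers were not shown to pair the libraries, although each CD18Foxp3 library correlated best with its own number. With the replicate block 27 members were called on stimulation in CD18wt and 29 in CD18Foxp3 Treg, and 0 in the other comparisons.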

Other observations

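Intron reads, which come mostly from RNA not yet spliced, were counted for the members beside their exon reads. Summed over the members they were 76.3, 91.4 and 54.1 CPM (of all gene reads) in unstimulated CD18wt libraries 1 to 3 and 96, 46.1 and 92.2 in stimulated ones. In CD18Foxp3 Treg they were 97.0, 84.0 and 86.1 and then 86.6, 99.5 and 79.6. The intron sums overlapped between the cultures in both genotypes. The exon sums did not overlap, at 1949, 1944 and 1959 against 1414, 983 and 1126 CPM in CD18wt Treg and at 2276, 2166 and 2312 against 1144, 1418 and 1175 CPM in CD18Foxp3 Treg. Of the 23 members with at least 60 intron reads over the 6 libraries of a genotype, Irf9 was lower in every stimulated than in every unstimulated CD18wt library, and Bst2 and Dtx3l were higher. Over all 9516 genes with as many intron reads, 6.42% were lower and 28.7% higher in this way. In CD18Foxp3 Treg Irf9, Herc6, Zbp1 and Samd9l were lower and Stat2, Ifih1, Bst2, Parp9, Dtx3l and Xaf1 higher, where 11.5% and 43.4% of 10250 genes were.

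Members were also split by an ISRE core in the promoter window. Of the 15 with a match, 10 fell in CD18wt and 12 in CD18Foxp3 Treg, with median log2 fold changes of -2.01 and -1.89. Of the 12 without, 10 fell in each genotype, with medians of -1.82 and -1.66. These values are a description, with no test of the difference.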
